A study of Mus musculus with 8 samples.

Results

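The genes of collagen chains, laminin chains and integrin subunits were examined in mouse fully grown GV (germinal vesicle) oocytes that lacked CNOT7 and CNOT8, the paired catalytic subunits of the CCR4-NOT deadenylase. Members were chosen by gene name alone, with a pattern that takes collagen symbols (Col, number, a, number), laminin symbols (Lama, Lamb, Lamc) and integrin symbols (Itga, Itgb). The pattern uses no measured value, but it was chosen with earlier results of these data known. The pattern matched 88 of the 46078 genes in the count table. Of these, 44 encode collagen chains, 11 laminin chains and 26 integrin subunits, and 7 share the name and are not counted as a chain or subunit (Col4a3bp, Itgb1bp1 under both of its gene identifiers, Itgb1bp2, Itgb3bp, Itgbl1 and Itgb2l). RNA was measured in 8 libraries of 100 oocytes each, with 4 libraries labelled Zp3-Cre (control) and 4 labelled CNOT7&8 KO (KO). In the KO, floxed Cnot7 and Cnot8 alleles, backcrossed to C57BL/6J, were deleted by Cre under the Zp3 promoter, which is active in growing oocytes, so the follicle cells and any oocyte stage before growth keep both genes. The control carries the same Cre, and whether it also carries floxed alleles is not given in the sources used here. Females of both groups were 4 weeks old and received 5 IU of PMSG, and oocytes were collected 48 h later, freed of cumulus cells with hyaluronidase and pipetting, and kept in dibutyryl-cAMP until use. The animals behind each library are not named, so p-values measure the spread between these libraries.

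Collagens are secreted trimers whose chains carry long runs of a triplet that starts with glycine, and each type (I, IV, VI and so on) needs particular chains to fold together. Laminins are cross-shaped trimers of an alpha, a beta and a gamma chain and, with collagen IV, form the sheets of basement membranes. Integrins are receptors made of an alpha and a beta subunit that span the plasma membrane and bind laminins, collagens or proteins with an RGD motif such as fibronectin and vitronectin. In the ovary, basement membrane surrounds the follicle outside the granulosa cell layer, fibrillar collagens belong to stroma and theca, and the oocyte is known for alpha6, alpha9, alphaV and beta1 integrins on its surface.

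The repeat that defines a collagen was read from the coding sequences of the GENCODE vM21 annotation (GRCm38). In the 44 collagens the longest unbroken run held between 23 and 344 glycine triplets, and runs of at least 5 triplets covered from 8.20% to 86.9% of codons. No integrin or laminin had a run longer than 3, and Col4a3bp, the ceramide transfer protein that is named after collagen IV, had none longer than 2. The stretches of 45 coding bases below show the repeat in the most abundant collagen of these oocytes and in the upregulated Col23a1, with the glycine codon that starts each triplet in capitals.
Col6a6, chr9:105761424-105761468, minus strand: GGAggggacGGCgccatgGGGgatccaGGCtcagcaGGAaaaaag
Col23a1, chr11:51557471-51557515, plus strand: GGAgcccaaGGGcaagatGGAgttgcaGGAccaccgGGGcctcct

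Counts per library summed to between 8639444 and 44092144, and 3 counts, taken as the floor of detection, corresponded to between 0.0802 and 0.326 CPM (counts relative to the library total, scaled by edgeR's TMM method). Floors and intervals cover counting error only. Of the targeted genes, Cnot8 was at 154 to 197 CPM in control and 33.1 to 36.1 CPM in KO libraries and passed the 2-fold call (log2 fold change -2.25). Cnot7 was at 886 to 1050 CPM and 622 to 789 CPM (log2 fold change -0.38), so most of its counts remained in KO and its RNA does not by itself show the deletion. All 12 oocyte markers examined were detected in every library, with a summed level of 21950 to 25780 CPM in control and 18130 to 20880 CPM in KO libraries. Of 13 granulosa and cumulus markers, 12 were tested and 7 were upregulated, beside 23.8% of all tested genes. The sum of the 13 was 133.6 to 187.4 CPM in control and 229.4 to 322.3 CPM in KO libraries. Cyp19a1, the most abundant of them in control, went the other way by less than 2-fold (log2 fold change -0.90). It was at 50.4 to 67.7 CPM in control and 23.5 to 38.1 CPM in KO libraries. The 7 upregulated markers were all above every control library in KO replicates 1 to 3. They were called on these same libraries, which favours KO values above control. In KO replicate 4, Gja1, Inha, Inhba and Fst did not exceed the highest control library. Leukocyte markers summed to 3.80 to 5.43 CPM in control and 6.34 to 7.77 CPM in KO libraries (2 of 5 tested upregulated, Tyrobp without a count in control), and theca and stroma markers to 3.20 to 5.17 CPM and 3.48 to 5.77 CPM (1 of 6 tested upregulated). Endothelial markers summed to 121.6 to 155.3 CPM and 95.2 to 109.2 CPM, of which Pecam1 alone gave 86.8 to 108 CPM and 73.3 to 88.0 CPM, with Vwf upregulated, Kdr downregulated and Emcn without a count. The 4 globin genes and the 3 platelet markers had no count in any library. The part of other cell types in the results below was not tested beyond these values.

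Control libraries held a defined subset of the members. More than 3 counts were found in all 4 control libraries for 47 of the 88 members, in all 4 KO libraries for 57, and in all 8 libraries for 45. At the other end, 10 members had at most 3 counts in each of the 8 libraries, among them Col8a1 and Col8a2, the chains of corneal and vascular collagen VIII. Of the families, 9 of 11 laminin chains, 15 of 26 integrin subunits and 18 of 44 collagens passed 3 counts in all control libraries. In all, 74 members passed the filter of at least 0.2 CPM in 2 libraries and were tested, and 14 did not, namely Col2a1, Col5a1, Col5a3, Col6a2, Col8a1, Col8a2, Col10a1, Col15a1, Itga11, Itgax, Itgb7, Itgb8, Itgb1bp2 and the second identifier of Itgb1bp1. Of the tested members, 42 had a mean of at least 1 CPM in control, and 32 were lower and are called traces. The level does not name the source, since the granulosa markers Inha, Gja1, Inhba and Hsd17b1 were also above 1 CPM in every control library. Whether RNA of a member came from the oocytes or from other cells left in the preparation cannot be told apart, and neither can fewer cells with the RNA and less RNA per cell in such pooled samples.

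Of the 74 tested members, 15 were upregulated and 5 downregulated in KO, with an adjusted p of at most 0.05 (edgeR's quasi-likelihood test, Benjamini-Hochberg adjustment over all 19241 tested genes) and a fold change of at least 2. Those are 20.3% and 6.76% of the members, beside 23.8% and 6.56% of all tested genes, so the members as a whole stood near the background. Their median log2 fold change was 0.26, and that of all tested genes 0.12. The groups did not overlap for 16 members with KO above and 9 with KO below control, 25 of 74, whereas this held for 48.4% of all tested genes. Among the 42 members at 1 CPM or more in control, 7 were upregulated and 4 downregulated (16.7% and 9.52%), beside 13.0% and 9.06% of all genes at that level. Among the 32 traces, 8 were upregulated and 1 downregulated (25.0% and 3.12%), beside 45.3% and 1.61% of all genes under 1 CPM in control. A gene under the filter in both groups was not tested, so a low gene entered mainly through the group in which it was higher. No control library of the upregulated Col4a4, Col5a2, Col26a1 and Itga4 reached 0.2 CPM, so these were tested only through their KO level. Scaling by library size alone moved the log2 fold changes of all genes up by a median of 0.29. It gave 22 members upregulated and 3 downregulated, beside 5643 and 587 of all 19241 tested genes. It also turned the sign of 8 of the 74 tested members, Col11a2, Col24a1, Col4a3bp, Col6a6, Itga6, Itgb1, Lama1 and Lamc1, none of which passed the call. TMM computed on genes of at least 10 CPM turned the same 8, and upper-quartile scaling 3 of them, Col4a3bp, Col6a6 and Lama1. The families differed in their counts, with 7 of 36 collagens, 1 of 11 laminin chains and 5 of 22 integrin subunits upregulated and 2, 3 and 0 downregulated, but a difference between families was not tested.

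**Figure D1:**
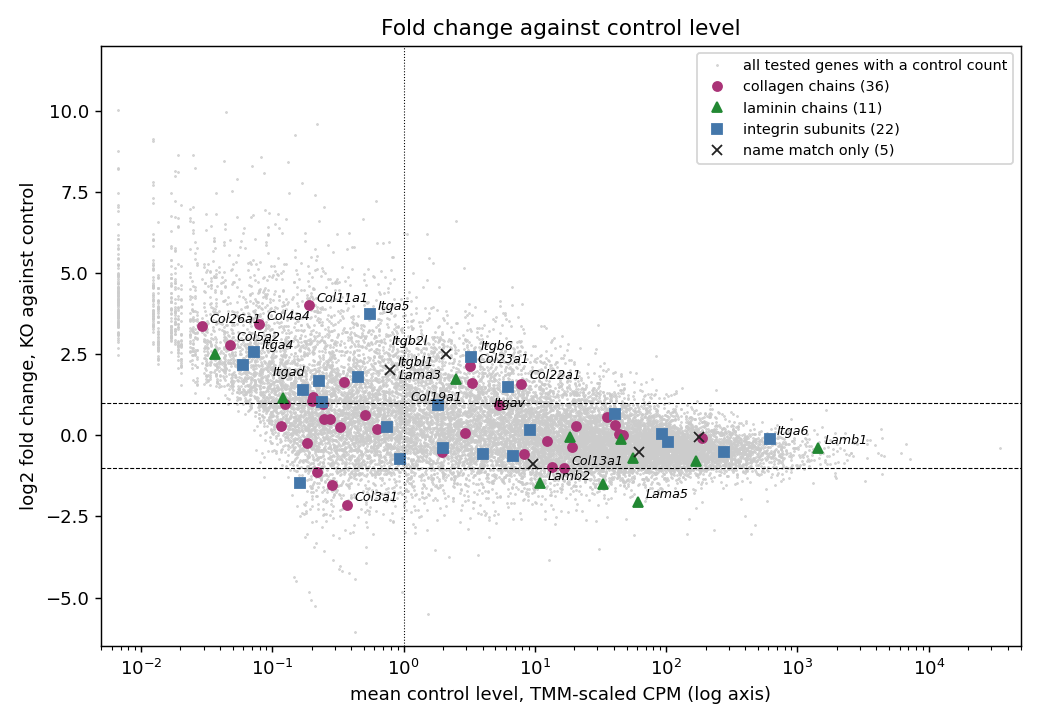
Log2 fold change of KO against control (y) by mean control level in TMM-scaled CPM (x, log axis) for all tested genes with a count in control (grey) and for the 74 tested members by family. Dashed lines mark a 2-fold change and the dotted line 1 CPM; the downregulated Lama5 and Lamb2 lie right of it, and of the 5 upregulated integrin subunits only Itgav and Itgb6 do.

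Laminin chains had the highest summed level of the 3 families. Their summed level was 1655 to 1952 CPM in control and 1263 to 1377 CPM in KO libraries, with no overlap, and without Lamb1 the mean over control libraries was 397.5 ± 25.2 CPM (SD, n = 4) and that over KO libraries 233.3 ± 20.6 CPM (SD, n = 4). Lama5 and Lamb2 fell, Lama3 rose, and Lamb1, Lama2 and Lama4 were lower by less than 2-fold. The median log2 fold change of the 11 chains was -0.38, and that of all tested genes 0.12. For the 9 chains at 1 CPM or more in control it was -0.69, beside -0.18 for all tested genes at that level. Of those 12796 genes, 4005 had all KO libraries below all control libraries. Whether laminin chains differed from other genes of their level was not tested.

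Lamb1, the beta chain of most laminins (ENSMUSG00000002900, chr12:31265234-31329644, plus strand), was the most abundant member per kb of exon, at 143.8 CPM per kb in control and 110.6 in KO. It had 1529, 1501, 1292 and 1382 CPM in control replicates 1 to 4 and 1107, 1028, 1137 and 1117 CPM in KO replicates 1 to 4. Every KO library was thus below every control library, but the change was less than 2-fold (log2 fold change -0.38, SE 0.10, adjusted p = 0.00553, edgeR's quasi-likelihood test). Lamc1, the common gamma chain, stayed between 38.5 and 50.0 CPM in control and between 39.1 and 45.4 CPM in KO (log2 fold change -0.11, SE 0.12), and the groups overlapped.

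The alpha chains, which give a laminin its receptor binding, moved in different directions. Lama5, the alpha chain of laminin-511 (ENSMUSG00000015647, chr2:180176373-180225859, minus strand), had 35.2, 79.8, 59.2 and 69.8 CPM in control replicates 1 to 4 and 17.3, 11.5, 19.9 and 11 CPM in KO replicates 1 to 4. Its lowest control library, replicate 1, was still above the highest KO library, and the gene fell to 24.5% of the control mean (log2 fold change -2.04, SE 0.26, adjusted p = 4.7e-05). Lama2, the alpha chain of muscle laminin, was at 149 to 220 CPM in control and 79.3 to 137 CPM in KO (log2 fold change -0.78, SE 0.18, adjusted p = 0.00325). Lama4, found in vessel walls, was at 51.4 to 60.9 CPM and 26.7 to 42.7 CPM (log2 fold change -0.69, SE 0.15, adjusted p = 0.00215). For both, the KO libraries lay below the control libraries without reaching a 2-fold change, with KO replicate 4 the highest KO library for Lama2 and KO replicate 2 for Lama4. Lama1, the alpha chain of embryonic basement membranes, overlapped fully, at 16.6 to 20.8 CPM in control and 13.3 to 22.3 CPM in KO (log2 fold change -0.05, SE 0.17). Lama3, the epithelial alpha chain of laminin-332 (ENSMUSG00000024421), went the other way, with 3.34, 2.96, 1.63 and 2.11 CPM in control and 8.36, 10.4, 6.60 and 8.62 CPM in KO replicates 1 to 4. The groups were well apart, and Lama3 rose (log2 fold change 1.73, SE 0.25, adjusted p = 1.0e-04).

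Lamb2, the beta chain of synaptic and kidney laminins, had 3.90, 13.4, 14.4 and 12.2 CPM in control and 4.45, 4.50, 4.996 and 1.87 CPM in KO replicates 1 to 4. It fell (log2 fold change -1.48, SE 0.40, adjusted p = 0.00722), but control replicate 1 lay inside the KO range while the other 3 control libraries were above it. The laminin traces Lamb3, with 12 counts over the control and 21 over the KO libraries, and Lamc3, with 2 and 14, did not pass the test. For Lamc3 the ratio of the counts at equal depth was 8.26, with an exact 95% interval from 1.90 to 74.9, and 10 of its 14 KO counts came from replicate 4.

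The stretch before the RefSeq start of Lama5 (GRCm38.p6) is shown because Lama5 fell most among the laminin chains, beside those of Col13a1, which fell, and of Itga5, which rose most among the integrins. Capitals mark GGGCGG or its reverse complement CCGCCC, and each sequence is the 100 bases before the start, outside any annotated exon.
Lama5, chr2:180225860-180225959, minus strand: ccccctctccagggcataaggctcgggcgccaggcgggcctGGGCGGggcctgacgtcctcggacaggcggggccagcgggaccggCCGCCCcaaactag
Col13a1, chr10:61979109-61979208, minus strand: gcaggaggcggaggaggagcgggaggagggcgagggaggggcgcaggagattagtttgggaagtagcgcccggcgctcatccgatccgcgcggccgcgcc
Itga5, chr15:103366792-103366891, minus strand: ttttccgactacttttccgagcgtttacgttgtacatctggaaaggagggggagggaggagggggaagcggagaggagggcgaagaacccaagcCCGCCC

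**Figure D2:**
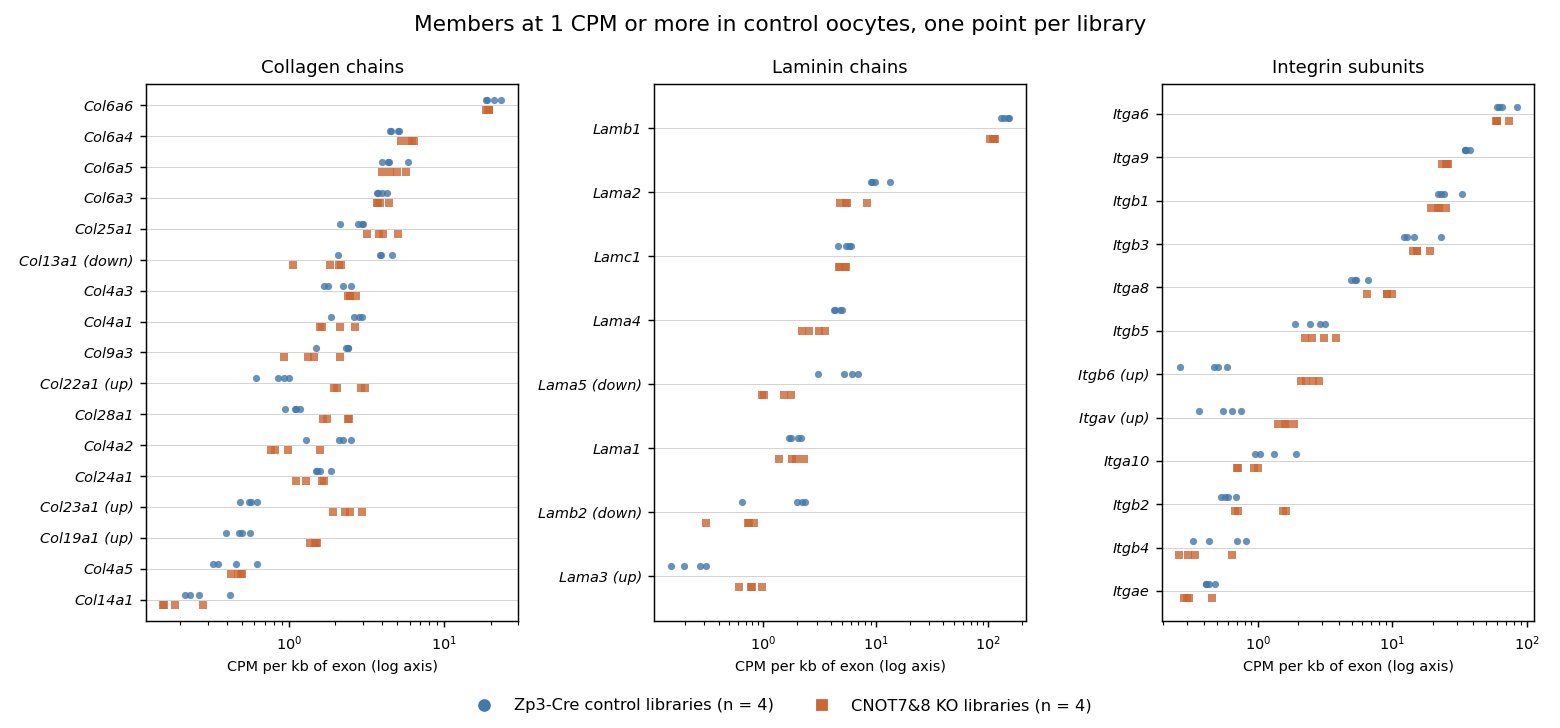
CPM per kb of exon (x, log axis) in each library for the collagen chains, laminin chains and integrin subunits with a mean of at least 1 CPM in control, one row per gene, 1 of them left out. Control libraries are circles and KO libraries squares, and the calls are written beside the names. Lamb1 and Itga6 stand highest, and the circles and squares of Lama5, Col23a1, Itgb6 and Itgav are apart while those of Col6a6, Lamc1 and Itgb1 mix.

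Collagens were dominated by collagen VI-type chains, which form beaded filaments around cells, and these did not change by 2-fold. Summed over all 44 collagens the mean control level was 475.2 ± 15.98 CPM (SD, n = 4) and the mean KO level 516.9 ± 21.7 CPM (SD, n = 4). Col6a6 (ENSMUSG00000043719, chr9:105687809-105828160, minus strand) had 214, 191, 171 and 175 CPM in control and 176, 179, 171 and 180 CPM in KO replicates 1 to 4. The KO values fell within the control range almost entirely, and the log2 fold change was -0.09 (SE 0.10, adjusted p = 0.471). Col6a3 was at 44.6 to 51.3 CPM in control and 44.4 to 53.2 CPM in KO libraries, and Col6a5 at 37.8 to 55.3 and 37.5 to 53.2 CPM, each with overlapping groups. Col6a4 was 38.2 to 44 CPM in control and 45.1 to 54.3 CPM in KO libraries, higher by the adjusted p but by less than 2-fold (log2 fold change 0.31, SE 0.12, adjusted p = 0.0375). Collagen VI filaments need the alpha1 and alpha2 chains, and those were hardly present. Col6a1 had 18 counts over the control and 31 over the KO libraries, and Col6a2 had 9 counts over the control libraries and none over the KO libraries, which allows up to 3 counts per library, or 0.102 to 0.326 CPM.

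Collagen IV, the network of basement membranes, is made from chains whose genes lie head to head in pairs. Col4a1 and Col4a2 encode the general form, Col4a3, Col4a4 and Col4a5 that of kidney, lung and eye, and Col4a6 a form in smooth muscle and skin. In vM21 the starts of Col4a1 and Col4a2 overlap by 22 bases, those of Col4a4 and Col4a3 are 71 bases apart, and those of Col4a6 and Col4a5 are 1308 bases apart. Col4a1 was at 13.9 to 22.1 CPM in control and 11.9 to 19.9 CPM in KO (log2 fold change -0.36, SE 0.20, adjusted p = 0.151). Its neighbour Col4a2 had 8.58, 14.9, 14.0 and 16.7 CPM in control and 6.52, 5.11, 10.6 and 5.38 CPM in KO replicates 1 to 4, and lay just outside the 2-fold threshold (log2 fold change -0.97, SE 0.27, adjusted p = 0.00815). Only control replicate 1 and KO replicate 3 crossed between the groups.

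Col4a4 (ENSMUSG00000067158, chr1:82448423-82586849, minus strand) rose while its partner Col4a3 (ENSMUSG00000079465, chr1:82586921-82722059, plus strand) did not pass the test. Col4a4 had 0.134, 0.0494, 0.136 and 0 CPM in control and 1.19, 1.32, 0.802 and 0.852 CPM in KO replicates 1 to 4. It was a trace in control, with 8 counts over the 4 libraries, and had 73 counts in KO, all 4 KO libraries being above all control libraries (log2 fold change 3.44, SE 0.56, adjusted p = 0.000253). None of its control libraries reached the 0.2 CPM of the filter, so it was tested only through its KO level. Of all tested genes under 1 CPM in control, 45.3% were upregulated. Col4a3 had 25.2, 16.9, 22.3 and 17.9 CPM in control and 23.9, 24.7, 24.6 and 27.2 CPM in KO replicates 1 to 4, where control replicate 1 was as high as the KO libraries (log2 fold change 0.29, SE 0.15, adjusted p = 0.128). A total of 563 exon bases of Col4a3 are also covered by C430014B12Rik on the opposite strand, and the strand setting of the counting is not given, so some reads of Col4a3 may belong there. The 71 bases between the starts (chr1:82586850-82586920) are printed on the strand of Col4a4, because one gene on each side of them differed in its call. They hold no GGGCGG on either strand.
Col4a4 to Col4a3: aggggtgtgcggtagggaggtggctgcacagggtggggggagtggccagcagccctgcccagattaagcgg
The other chains did not pass the test. Col4a5 was at 2.19 to 4.20 CPM in control and 2.84 to 3.35 CPM in KO libraries, and Col4a6 at 0.0494 to 1.09 and 0.617 to 1.19 CPM.

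Of the 4 membrane-spanning collagens, 1 rose, 1 fell and 2 did not pass the call. Col23a1 (ENSMUSG00000063564, chr11:51289920-51583918, plus strand) had 2.78, 3.26, 3.20 and 3.57 CPM in control and 13.3, 11, 17.1 and 14.3 CPM in KO replicates 1 to 4. Each KO library was more than 3 times as high as any control library, and the gene rose 4.37-fold (log2 fold change 2.13, SE 0.19, adjusted p = 2.8e-06). Col13a1 (ENSMUSG00000058806, chr10:61838236-61979108, minus strand), a collagen of nerve-muscle junctions, had 9.52, 21.2, 17.9 and 18.0 CPM in control and 9.99, 8.51, 9.68 and 4.94 CPM in KO replicates 1 to 4. It lay just inside the 2-fold threshold (log2 fold change -1.02, SE 0.27, adjusted p = 0.00702), and control replicate 1 was at the level of the KO libraries. Without 1 of control replicates 2, 3 or 4 or KO replicate 4, it no longer passed the call, with log2 fold changes of -0.82 to -0.98. The call was also lost with scaling by library size (-0.75), upper quartile (-0.93) or TMM on genes of at least 10 CPM (-0.79), and with a filter of 1 CPM in 4 libraries (-0.95). Col25a1, a collagen of neurons, was at 27.8 to 38.9 CPM in control and 41.5 to 65.8 CPM in KO libraries, apart but less than 2-fold (log2 fold change 0.57, SE 0.16, adjusted p = 0.0103). Col17a1, the hemidesmosome collagen, was a trace at 0.0267 to 0.728 CPM in control and 0.714 to 1.36 CPM in KO libraries and did not pass the test (adjusted p = 0.0654).

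The 9 collagens that attach to the surface of fibrils or resemble those that do included 2 that rose. Col19a1 (ENSMUSG00000026141, chr1:24261890-24587472, minus strand) had 2.73, 3.46, 3.88 and 3.28 CPM in control and 10.3, 10.49, 10.2 and 9.44 CPM in KO replicates 1 to 4, tight within each group and far apart (log2 fold change 1.61, SE 0.18, adjusted p = 1.4e-05). Col22a1, a collagen of tissue junctions (ENSMUSG00000079022, chr15:71795795-72034227, minus strand), had 5.69, 7.80, 9.19 and 8.60 CPM in control and 26.9, 18.8, 28.6 and 18.1 CPM in KO replicates 1 to 4. It rose 2.97-fold (log2 fold change 1.57, SE 0.21, adjusted p = 5.8e-05), with KO replicates 1 and 3 above replicates 2 and 4. Of collagen IX, Col9a3 was at 5.77 to 9.25 CPM in control and 3.58 to 8.27 CPM in KO libraries, whereas Col9a1 had 11 counts in each group. Among the others, Col28a1, a relative of collagen VI, was at 4.63 to 5.76 CPM in control and 8.20 to 12.1 CPM in KO libraries, higher by the adjusted p and short of 2-fold (log2 fold change 0.93, SE 0.19, adjusted p = 0.00123).

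The fibrillar collagens of stroma, bone and cartilage were traces except for Col24a1. Of the 11, 10 were under 1 CPM in control and 9 in KO. Col24a1 was at 11.4 to 14.3 CPM in control and 8.51 to 12.9 CPM in KO (log2 fold change -0.18, SE 0.17). Col1a1 and Col1a2, the chains of collagen I and the main products of fibroblasts, had 10 and 16 counts over the 4 control libraries and 17 and 6 over the 4 KO libraries. Col3a1, another fibroblast product, had 11, 3, 8 and 7 counts in control and 0, 2, 0 and 4 counts in KO replicates 1 to 4. It was called lower (log2 fold change -2.13, SE 0.79, adjusted p = 0.0360) on these 35 counts, and the call did not hold in 5 of the 8 fits that left out a library. Without KO replicate 4 the log2 fold change was -2.80. Col11a1, a chain of cartilage fibrils (ENSMUSG00000027966, chr3:114030540-114220718, plus strand), rose from a trace. It had 0.481, 0, 0.0680 and 0.219 CPM in control and 3.37, 5.33, 3.89 and 2.62 CPM in KO replicates 1 to 4, 22 counts against 268, so that no KO library came near the control range (log2 fold change 4.01, SE 0.56, adjusted p = 8.7e-05). Of its 22 control counts 18 came from replicate 1, and without that library the log2 fold change was 5.39. Its partner chain Col11a2 had 13 counts in control and 10 in KO. Col5a2 rose by the test from 4 to 27 counts (log2 fold change 2.80, SE 0.83, adjusted p = 0.0124), and KO replicate 1, with 1 count, lay inside the control range. Without control replicate 3 the log2 fold change was 3.50.

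Col26a1, a collagen of reproductive tissues outside these classes, had 0, 1, 1 and 0 counts in control and 1, 2, 4 and 19 counts in KO replicates 1 to 4. It passed the test (log2 fold change 3.36, SE 0.997, adjusted p = 0.0126) and not without KO replicate 3 or 4, and without control replicate 1 the log2 fold change was 2.73. The ratio of its counts at equal depth was 15.3, with an exact 95% interval from 3.84 to 133.

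**Figure D3:**
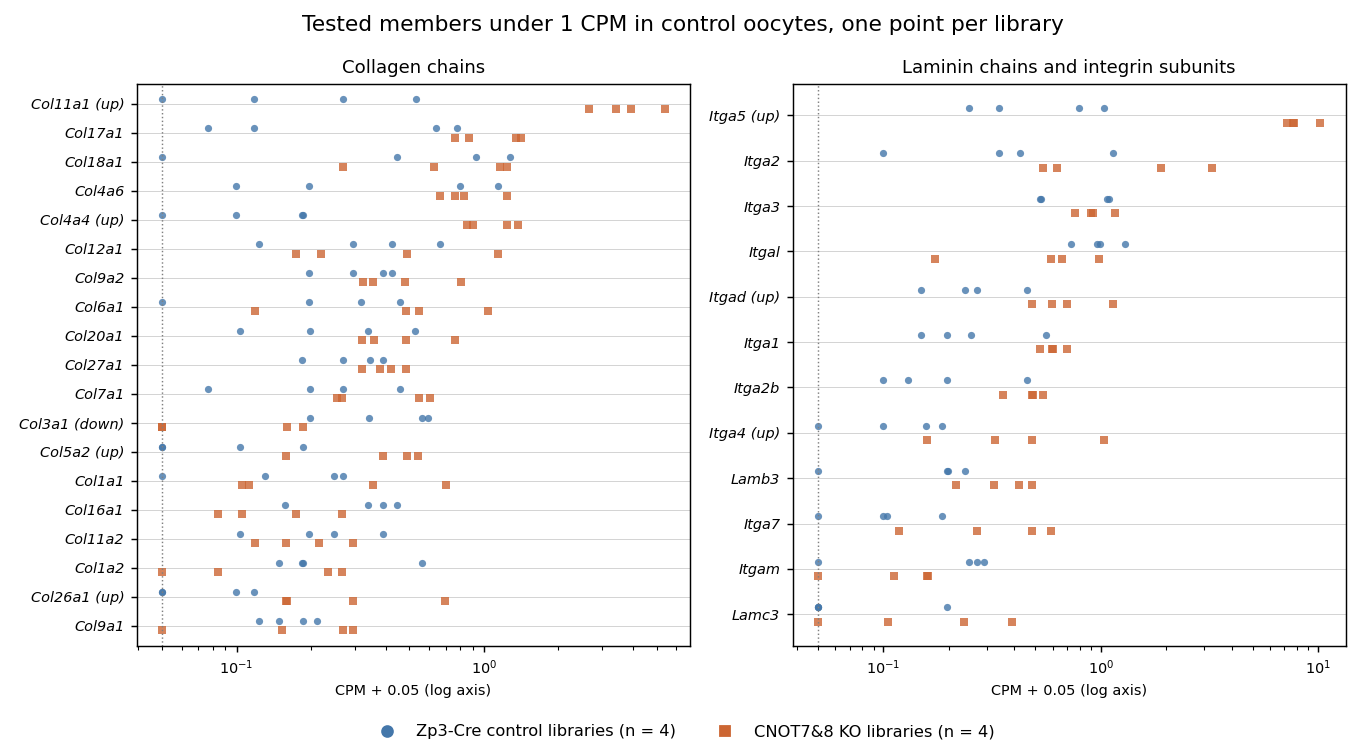
TMM-scaled CPM + 0.05 (x, log axis) in each library for collagen chains (left) and for laminin chains and integrin subunits (right) with under 1 CPM in control; a point on the dotted line is a library without a count. Col11a1, Col4a4 and Itga5 are the rows whose KO libraries stand clearest of the control libraries, and in most other rows circles and squares mix.

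Integrin subunits were present mainly as alpha6, alpha9, beta1 and beta3, and the subunits that rose were of lower level. Summed over the 26 subunits the mean control level was 1165 ± 169 CPM (SD, n = 4) and the mean KO level 1081 ± 91.9 CPM (SD, n = 4). The order of the levels per kb in control was Itga6 (68.2 CPM per kb), Itga9 (35.7), Itgb1 (25.5) and Itgb3 (15.7), followed by Itga8 (5.54) and Itgb5 (2.604). Itga6, the laminin receptor subunit (ENSMUSG00000027111, chr2:71745616-71858416, plus strand), had 765, 594, 541 and 563 CPM in control and 536, 537, 545 and 662 CPM in KO replicates 1 to 4. The groups overlapped, with control replicate 1 and KO replicate 4 each the highest of its group (log2 fold change -0.11, SE 0.13, adjusted p = 0.481). Itgb1, the common beta subunit, was at 88.7 to 135 CPM in control and 78.8 to 103 CPM in KO (log2 fold change -0.21, SE 0.14, adjusted p = 0.246), and Itgb3, the beta subunit of the vitronectin receptor, at 72.1 to 136 and 83.4 to 113 CPM (log2 fold change 0.03, SE 0.19).

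Itga9, a subunit that binds tenascin and other ligands, had 291, 268, 268 and 270 CPM in control and 192, 195, 179 and 198 CPM in KO replicates 1 to 4. The groups were clearly apart, at a change of less than 2-fold (log2 fold change -0.52, SE 0.09, adjusted p = 0.000495). Itga8, which binds nephronectin, was at 36.1 to 48.6 CPM in control and 47.98 to 73.8 CPM in KO (log2 fold change 0.65, SE 0.15, adjusted p = 0.00321), where control replicate 1 just passed KO replicate 3. Itga10, a collagen receptor subunit, was lower by the adjusted p alone, at 4.97 to 9.97 and 3.63 to 5.25 CPM (log2 fold change -0.65, SE 0.25, adjusted p = 0.0407), and 33.5% of its exon bases are shared with Gm42957 on the same strand.

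Itga5, Itgav and Itgb6, which bind RGD motifs, rose with no overlap between the groups. Itga5, the fibronectin receptor subunit (ENSMUSG00000000555, chr15:103344286-103366763, minus strand), had 0.989, 0.197, 0.748 and 0.291 CPM in control and 10.2, 7.69, 7.15 and 7.63 CPM in KO replicates 1 to 4. The lowest KO library was more than 7 times as high as the highest control library, and the gene rose 13.5-fold (log2 fold change 3.75, SE 0.38, adjusted p = 7.4e-06). Itgb6, a beta subunit of epithelia (ENSMUSG00000026971, chr2:60598292-60722643, minus strand), had 4.20, 1.88, 3.40 and 3.64 CPM in control and 16.4, 14.9, 18.3 and 20.5 CPM in KO replicates 1 to 4, apart by a wide margin (log2 fold change 2.41, SE 0.23, adjusted p = 5.7e-06). Itgav, which pairs with beta1, beta3, beta5, beta6 or beta8 (ENSMUSG00000027087, chr2:83724397-83806916, plus strand), had 8.07, 5.92, 6.94 and 3.93 CPM in control and 17.5, 20.1, 15.1 and 17.2 CPM in KO replicates 1 to 4. Its KO libraries were alike and all above control (log2 fold change 1.48, SE 0.21, adjusted p = 9.6e-05). Of the 9 RGD-type subunits 8 were tested, and these 3 were the ones upregulated, beside 23.8% of all tested genes. Itgb5 was at 6.71 to 11.2 CPM in control and 8.02 to 13.6 CPM in KO libraries, Itga2b was a trace and Itgb8 was not tested. None of the 6 laminin receptors and none of the 6 tested collagen receptors passed the call, Itgb1 being counted in both lists.

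The integrin subunits of leukocytes were traces apart from Itgae and Itgb2, and 2 of the 6 tested were upregulated, each on few counts, beside 23.8% of all tested genes and 45.3% of those under 1 CPM in control. Itga4 had 4, 1, 2 and 0 counts in control and 1, 5, 7 and 29 counts in KO replicates 1 to 4, so that most of its reads came from KO replicate 4 (log2 fold change 2.56, SE 0.76, adjusted p = 0.0127). Itgad had 7, 2, 6 and 3 counts in control and 6, 10, 7 and 32 counts in KO, again with KO replicate 4 highest (log2 fold change 1.66, SE 0.52, adjusted p = 0.0167). Neither call held without KO replicate 4, where the log2 fold change of Itga4 was 1.83. Of the exon bases of Itga4, 8.04% are shared with Cerkl on the opposite strand. Those of Itgad are shared with several genes, among them Gm17831 on the same strand (7.32%) and 4931431B13Rik on the opposite strand (8.6%). Some reads of Itga4 and Itgad may belong to these genes. Itgb2, the common beta subunit of leukocytes, had 1.84, 2.12, 1.63 and 1.75 CPM in control and 2.17, 2.09, 4.93 and 4.74 CPM in KO replicates 1 to 4. It lay just outside the 2-fold threshold (log2 fold change 0.94, SE 0.31, adjusted p = 0.0229), KO replicates 3 and 4 standing above the rest. Its partners Itgal, with 80 counts in control and 42 in KO, and Itgam, with 16 and 4, did not pass the test, and 68.7% of the exon bases of Itgam are shared with Gm49368 on the same strand. Itgax and Itgb7 had 2 and 5 counts in control and none in KO. Of the leukocyte markers given above, Ptprc and Cd68 were upregulated. Ptprc, the pan-leukocyte marker, was at 0.0267 to 0.340 CPM in control and 0.326 to 1.11 CPM in KO libraries, highest in KO replicate 3. Laptm5 was at 2.38 to 3.11 CPM in control and 2.21 to 3.04 CPM in KO libraries. Csf1r was at 0.187 to 0.494 and 0 to 0.326 CPM. Neither passed the test, nor did Adgre1. Tyrobp had no count in control and 0.0681 CPM in KO replicate 4 alone, under the floor of 0.102 CPM there. The part of leukocytes in these values was not tested.

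**Figure D4:**
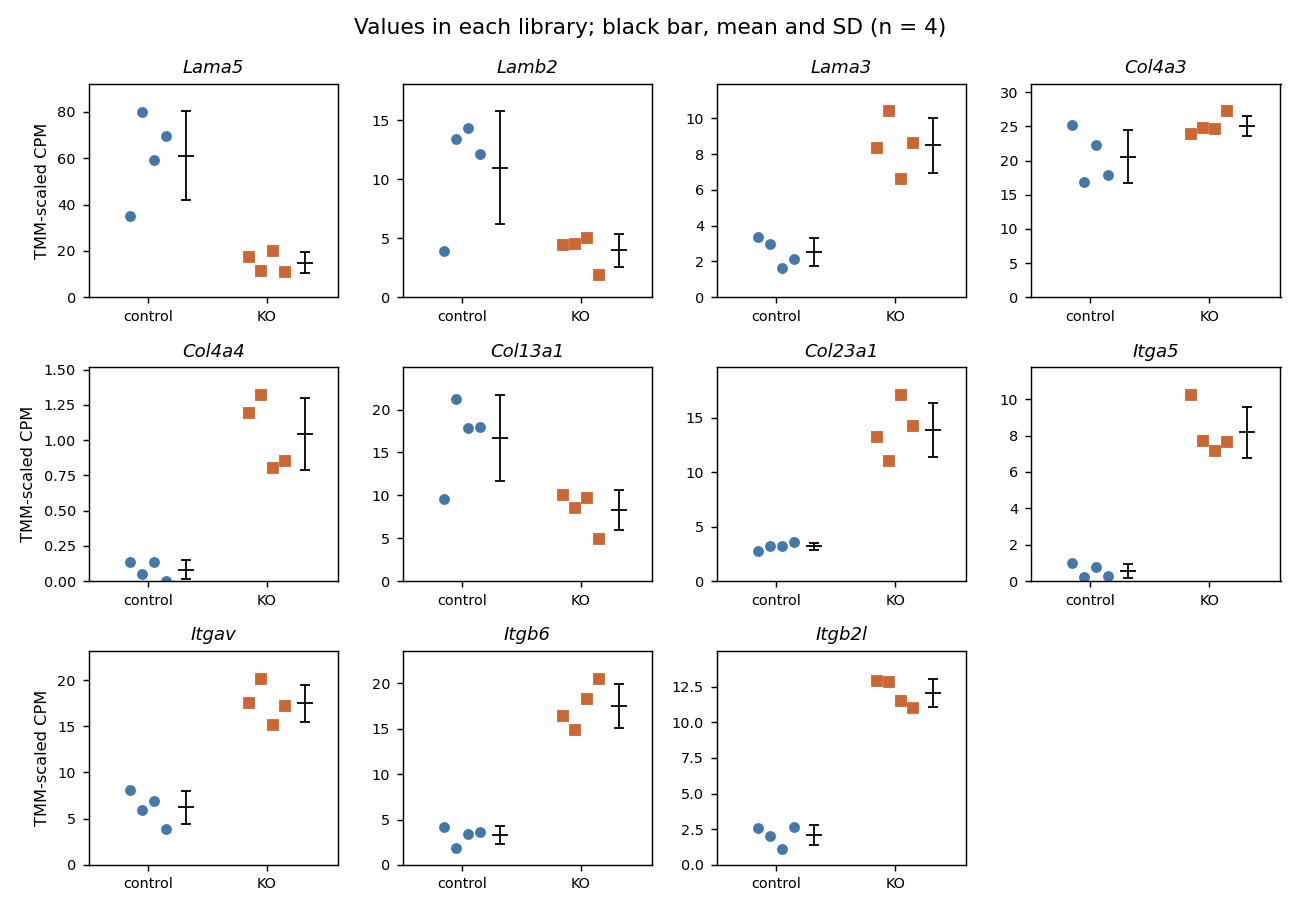
TMM-scaled CPM (y, linear from 0) in each of the 4 control libraries (circles) and 4 KO libraries (squares) for 11 genes, with the mean and SD of each group as a black bar. Control replicate 1, the leftmost circle, lies at the KO level for Lamb2 and Col13a1, and no control circle reaches the KO squares for Itga5, Itgav, Itgb6, Itgb2l, Col23a1, Col4a4 and Lama3.

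Subunits work only as assemblies, so the least abundant chain of each was taken per kb of exon. All chains of laminin-111, laminin-211, laminin-411 and laminin-511 had more than 3 counts in every library. The chain of laminin-511 at the lowest level was Lama5, at 5.36 CPM per kb in control and 1.31 in KO, and that of laminin-521 was Lamb2, at 1.80 and 0.650. The lowest chain of laminin-211 was Lamc1, at 5.48 and 5.08 CPM per kb. Collagen IV alpha1-alpha2 was limited by Col4a2 (2.04 and 1.04 CPM per kb), alpha3-alpha4-alpha5 by Col4a4 (0.00752 and 0.0981), and the collagen VI form with alpha3 by Col6a2 (0.0141 and 0). Among integrins, alpha6beta1 and alpha9beta1 were limited by Itgb1 (25.5 and 22.1 CPM per kb), alpha5beta1 by Itga5 (0.113 and 1.66), and alphaVbeta3 by Itgav (0.579 and 1.63). For alphaVbeta6 the lowest subunit was Itgb6 in control (0.461 CPM per kb) and Itgav in KO (1.63). These are levels of RNA, and the amounts of protein or of assembled complex were not analysed here.

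The 7 gene identifiers that matched the pattern and are not counted as a chain or subunit were not alike. Col4a3bp had 240, 169, 142 and 166 CPM in control and 161, 157, 160 and 211 CPM in KO replicates 1 to 4 and did not differ (log2 fold change -0.05, SE 0.16, adjusted p = 0.793), with overlapping groups and control replicate 1 and KO replicate 4 the highest of each. Itgb1bp1, a protein that binds the tail of the beta1 subunit, was lower by less than 2-fold, at 54.4 to 66.8 CPM in control and 41.1 to 44.9 CPM in KO (log2 fold change -0.52, SE 0.11, adjusted p = 0.00200). Itgb3bp, a centromere protein also called CENP-R, was at 8.74 to 11.2 and 4.78 to 6.65 CPM (log2 fold change -0.87, SE 0.18, adjusted p = 0.00129), and for both the groups were apart. Itgb2l, a gene that resembles the beta2 subunit (ENSMUSG00000000157, chr16:96422288-96443619, minus strand), had 2.62, 2.02, 1.09 and 2.62 CPM in control and 12.9, 12.9, 11.5 and 11 CPM in KO replicates 1 to 4. It rose with KO libraries close together (log2 fold change 2.50, SE 0.24, adjusted p = 6.0e-06), as did Itgbl1, a secreted protein with integrin-like repeats, from 0.612 to 1.02 CPM in control to 2.90 to 3.65 CPM in KO (log2 fold change 2.02, SE 0.26, adjusted p = 4.7e-05).

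Of the 15 upregulated members, all 15 were above the highest control library in KO replicates 2, 3 and 4, and 13 in KO replicate 1, the exceptions being Col5a2 and Itga4. Members and markers alike were called upregulated on these same libraries, so KO values above control were largely fixed by the call. The same count over all upregulated genes was not made. In KO replicate 4, Itga5, Itgb6, Col23a1 and Itgb2l were at 7.63, 20.5, 14.3 and 11 CPM, close to the other KO libraries. Of the 7 upregulated granulosa markers, 4 did not exceed control there. Fshr, Kitl and Nr5a2, at 3.34, 40.1 and 132 CPM, did. The source of the RNA in this library was not tested. Without control replicate 1 and KO replicate 4 together, 16 members were upregulated and 6 downregulated. Of the 15 first named, 12 kept the call, and Col26a1, Itga4 and Itgad lost it.

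The partners of these proteins were examined in lists of their own. Of 12 other basement-membrane proteins and ligands, 5 were upregulated and none downregulated, 5 of the 12 being under 1 CPM in control. Over all tested genes 23.8% were upregulated, and 45.3% of those under 1 CPM in control, and these shares stand beside the counts of each list below as well. Tnc, tenascin-C, a ligand of alpha9 and alphaV integrins, was at 4.29 to 6.28 CPM in control and 24.0 to 37.8 CPM in KO libraries, with no overlap (log2 fold change 2.43, SE 0.19, adjusted p = 1.2e-06). Nid2, which links laminin to collagen IV, was at 0.0728 to 0.543 and 3.07 to 4.01 CPM (log2 fold change 3.45, SE 0.40, adjusted p = 2.3e-05), and Frem1 at 0 to 0.136 and 1.23 to 2.25 CPM (log2 fold change 4.36, SE 0.59, adjusted p = 6.9e-05). Frem1 was under 0.2 CPM in every control library, so it was tested only through its KO level. Hspg2 (perlecan) and Npnt (nephronectin) were the other members of the list that rose, though Hspg2 in KO replicate 4 and Npnt in KO replicate 2 lay inside the control range. Fn1, fibronectin, was at 16.6 to 19.4 CPM in control and 21.0 to 30.3 CPM in KO libraries, higher by less than 2-fold (log2 fold change 0.60, SE 0.15, adjusted p = 0.00400). Fras1, the most abundant of the list in control, was lower by less than 2-fold, at 20.1 to 26.8 and 10.6 to 14.7 CPM (log2 fold change -0.98, SE 0.16, adjusted p = 0.000253).

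Of 25 genes for collagen processing, 22 were tested, 8 were upregulated and none downregulated, with 8 of the 22 tested under 1 CPM in control. The most abundant, P4hb and P4ha1, which encode the subunits of the prolyl hydroxylase needed for a stable triple helix, were at 231 to 310 and 179 to 254 CPM in control and 192 to 206 and 142 to 166 CPM in KO libraries. Both were lower by the adjusted p and by less than 2-fold (log2 fold changes -0.38 and -0.44). Those that rose were lower in level, among them P3h3 (log2 fold change 3.44) and P4ha3 (3.19), both at no more than 0.107 CPM in any control library. P3h3 and P4ha3 were therefore tested only through their KO level. The collagen galactosyl transferase gene Colgalt2 also rose, from 18.9 to 28.6 CPM in control to 62.2 to 83.3 CPM in KO (log2 fold change 1.69, SE 0.16, adjusted p = 3.7e-06). Serpinh1, the collagen chaperone HSP47, was at 0.874 to 1.91 CPM in control and 6.19, 5.0, 4.63 and 0.817 CPM in KO replicates 1 to 4, where KO replicate 4 fell below every control library (log2 fold change 1.52, SE 0.49, adjusted p = 0.0198).

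Of 16 genes whose products link integrins to actin, 2 were upregulated and 1 downregulated. Fermt2 (kindlin-2), the most abundant, was at 120 to 176 CPM in control and 149 to 196 CPM in KO libraries, and Ptk2 (focal adhesion kinase) was lower by less than 2-fold (log2 fold change -0.62, SE 0.13, adjusted p = 0.00137). Parvb rose (log2 fold change 2.13, SE 0.37, adjusted p = 0.000436), as did Src, and Fermt3, the kindlin of blood cells, fell on low levels, at 0.134 to 1.48 CPM in control and 0.0617 to 0.220 CPM in KO libraries. Of 5 tetraspanins found in integrin complexes, Cd63 and Cd81 rose, though Cd81 in KO replicate 4, at 1.53 CPM, lay inside the control range of 1.02 to 2.45 CPM. Cd9, needed in the egg membrane for fusion with sperm, was at 19.1 to 45.9 CPM in control and 25.7 to 33.1 CPM in KO (log2 fold change -0.01, SE 0.23). Cd151, a partner of alpha6 integrins and the most abundant of the 5, was at 51.4 to 65.7 and 25.1 to 34.2 CPM (log2 fold change -0.96, SE 0.13, adjusted p = 8.6e-05), apart and just short of 2-fold.

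The members share a gene structure that the name pattern did not use. Their median exon length was 7066 bases, their median number of exon blocks 35.5 and their median span 102 kb, beside 3568 bases, 8 blocks and 19.5 kb over all tested genes. The 250 bases before the RefSeq start (GRCm38.p6) were searched in the 51 tested members with an entry. The GC box was searched as GGGCGG or, on the other strand, as CCGCCC. The CCAAT box was searched likewise, with ATTGG on the other strand, and the TATA box as TATAA, with TTATA on the other strand. No motif contains another. The GC box was present in 49.0% of the members, the CCAAT box in 25.5% and the TATA box in 17.6%, beside 52.8%, 36.4% and 14.9% of all tested genes and 32.9%, 34.5% and 23.5% of all 27025 windows. Of the upregulated members 10 had an entry, and 50.0% of these held the GC box and none the TATA box, whereas of the 4 downregulated members with an entry 25.0% held the GC box and 75.0% the TATA box. Such a match is a description of the letters in the window.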

How the data were processed

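The study measured RNA of 4 Zp3-Cre and 4 CNOT7&8 KO libraries of 100 oocytes each. The authors prepared rRNA-depleted libraries (a stranded mRNA kit in the methods, a stranded total RNA kit in the labels), mapped reads to GRCm38 with STAR 2.6.1d per the submitters' processing notes, and deposited raw counts per gene, without normalization or filtering. The counting tool, annotation release and strand setting are not given in the sources used here, so counts of overlapping genes are uncertain.

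Counts were analyzed with edgeR 4.0.16 (quasi-likelihood test, TMM scaling, a filter of 0.2 CPM in at least 2 libraries, Benjamini-Hochberg adjustment over 19241 genes) in R 4.3.3. A gene was called with an adjusted p no higher than 0.05 and a change of 2-fold or more. Printed CPM are counts over the TMM-scaled library size, and SE is that of the log2 fold change. Alternatives used the exact test, DESeq2 1.42.0, other scalings, filters and thresholds, the replicate number as a block and leaving out libraries. Of all gene identifiers 98.2%, and 87 of the 88 members, were found in GENCODE vM21, and 62 of the 87 member symbols had a RefSeq promoter entry. Libraries of 1 group differed from each other beyond counting noise (chi-square per degree of freedom of at least 7.85).

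Members, gene lists and tests were chosen with earlier results of these data known. In each role group the 3 genes with the highest level per kb were named. In each family the 3 with the largest change in each direction were named, among called genes with non-overlapping groups and 1 CPM or more on average. Also named were the genes nearest to the 2-fold threshold and the name matches not counted as a chain or subunit. The 2 most abundant and 2 most changed called genes of each partner list were named too. All other genes named with values were chosen after their values were seen. Figures were made with matplotlib 3.10.9. The values of 1 member are not reported here.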

Additional observations from a re-analysis of the deposited data

Results flagged for a closer look

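In 4 of the 66 groups of 4 libraries examined, formed by 33 named members in 2 groups, 1 library lay far from the rest of its group (Dixon's test), where chance alone would give about 1 in 20, or 3.3 groups. Col4a3bp was at 211 CPM in KO replicate 4 and at 157 to 161 CPM in the other KO libraries. Itga6 was at 662 CPM in KO replicate 4, against 536 to 545 CPM in the other KO libraries. Itga9 was at 291 CPM in control replicate 1 and at 268 to 270 CPM in the other control libraries. Itgb3bp was at 6.65 CPM in KO replicate 2, against 4.78 to 5.0 CPM in the other KO libraries. For Itga9 and Itgb3bp the library that stood apart was on the same side of the other group as its companions, and for Col4a3bp and Itga6 the groups overlapped with or without it.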

How the results depend on the processing

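The 15 upregulated and 5 downregulated members all kept their call with edgeR's exact test, DESeq2 and RLE scaling, which added at most 2. Library-size scaling gave 3 downregulated members, 10 upregulated integrins and 13 upregulated traces, TMM on genes of at least 10 CPM gave 3 and 9 (first 2 counts), upper-quartile scaling 8 integrins, and a filter of 1 CPM in 4 libraries 3 downregulated members, 4 upregulated collagens and 3 upregulated traces. These scalings moved the median log2 fold change of all genes by 0.29, 0.25 and 0.10. At a false discovery rate alone, 13 of the 74 tested members were lower, beside 4631 of all 19241 tested genes. Of the 42 members at 1 CPM or more in control 12 were higher, beside 3049 of all 12796 genes at that level. Splitting members at 5 CPM put 2 upregulated ones above and 13 below, and splitting by the mean of all 8 libraries left 5 below 1 CPM.

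Signs turned for values near 0, given here for the named members. With library size only, TMM on genes of at least 10 CPM and, where it also turned, upper-quartile scaling, the log2 fold changes were 0.10 and 0.07 for Col24a1, 0.24, 0.21 and 0.05 for Col4a3bp, 0.19, 0.16 and 0.01 for Col6a6, 0.18 and 0.15 for Itga6, 0.08 and 0.06 for Itgb1, and 0.18 and 0.14 for Lamc1. With the stricter filter Col4a3bp was at 0.02, and without control replicate 1 and KO replicate 4 together at 0.01.

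Leaving out each library in turn gave 15 to 18 members upregulated and 3 to 7 downregulated, 7 to 8 collagens, 1 to 2 laminins and 5 to 8 integrins upregulated, and 7 to 8 members at 1 CPM or more in control and 7 to 11 traces upregulated. Downregulated members were 3 without control replicate 3 and without control replicate 4, which also gave 8 integrins and 2 laminins, respectively. Over the same fits the log2 fold change ranged from -0.15 to 0.12 for Col4a3bp, from -0.03 to 0.17 for Col6a5, from -0.17 to 0.01 for Itga6 and from -0.07 to 0.28 for Itgb3. Without KO replicate 4, Col13a1, Col26a1, Itga4 and Itgad lost their call.

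The replicate numbers did not pair the libraries (correlations of deviations between same-numbered libraries of -0.07, -0.04, 0.11 and -0.12). The largest correlations were between other numbers, at 0.37 for control replicate 1 with KO replicate 4 and -0.33 for control replicate 1 with KO replicate 3. With the replicate block 15 members were upregulated and 5 downregulated, of which 14 and 4 were the same as without it. Depth limits the traces, since 3 counts made up to 0.326 CPM. The causes of these changes were not tested.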

Other observations

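Among the 42 members at 1 CPM or more in control, control replicate 1 was the highest control library for 21 and the lowest for 12. Control replicate 3 was lowest most often, for 17, and highest for 4. Control replicate 2 was highest for 10 and lowest for 5, and control replicate 4 highest for 7 and lowest for 8. In the KO group replicate 3 was highest for 16 and lowest for 13, and replicate 4 highest for 12 and lowest for 14.

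Of the tested members, 6 were under 1 CPM in control and at 1 CPM or more in KO, namely Col11a1, Col17a1, Col4a4, Itga2, Itga5 and Itgbl1. How many of all tested genes crossed 1 CPM was not counted, and 45.3% of those under 1 CPM in control were upregulated. Itga2, a collagen receptor subunit, had 0.374, 0.0494, 1.09 and 0.291 CPM in control and 1.85, 3.19, 0.493 and 0.579 CPM in KO replicates 1 to 4, with overlapping groups (log2 fold change 1.79, adjusted p = 0.0563, edgeR's quasi-likelihood test). Ddr2, a collagen receptor that is a tyrosine kinase, was at 21.6 to 37.9 CPM in control and 43.4 to 71.1 CPM in KO libraries, apart and just short of 2-fold (log2 fold change 0.95, adjusted p = 0.00203). Ddr1, its relative, was at 11.5 to 23.3 and 9.20 to 15.9 CPM (log2 fold change -0.57, adjusted p = 0.0512). Dag1, the laminin receptor dystroglycan, was at 63.5 to 85.7 and 66.2 to 89.0 CPM (log2 fold change 0.09), with overlapping groups.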
